A study of Mus musculus with 6 samples.

Results

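The genes described here are parts of the machinery that makes microRNAs and lets them silence messenger RNAs, namely Dgcr8, Ddx5, Ddx17, Xpo5, Dicer1, Tarbp2 and Tnrc6a. The 7 genes were taken by name, and every non-control probe carrying one of these names was read. That gave 18 of the 41174 probes on the array, which hold 27376 gene names in all. Of the 18 probes, 14 were tested, those whose spot stood well above background on 3 or more of the 6 arrays, and each of the 7 genes was among them. The other 4 probes, 3 of Dgcr8 and 1 of Xpo5, stayed near background.

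The arrays compared iTreg cells, which are regulatory T cells induced in culture, from 3 miR-31fl/fl/CD4Cre mice (cKO) and 3 control mice, all 6 weeks old and on a C57BL/6 background. In cKO mice the floxed miR-31 gene is removed by Cre driven from the CD4 promoter, which is active in T cells, and the control mice of the study are described as carrying miR-31 fl/fl. From each spleen, naive T cells (CD4+CD25-Foxp3gfp-CD62Lhi) were sorted and then cultured for 4 days with anti-CD3 (5 µg/ml), anti-CD28 (2 µg/ml), TGF-β1 (5 ng/ml) and IL-2 (40 ng/ml), the same in both groups. These doses are those of the labels, and the study's methods give a lower dose of IL-2. RNA of each culture was read on a single-colour Agilent array. The array had 0 probes named for miR-31, so the deletion itself was not measured here.

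A microRNA gene is transcribed into a long RNA that folds into a hairpin. In the nucleus the complex of Drosha and Dgcr8 cuts the hairpin out, the export receptor Xpo5 carries it to the cytoplasm with Ran, and Dicer1 trims it to a short duplex. An Argonaute protein keeps the mature strand, and Tnrc6 proteins bound to Argonaute bring in the enzymes that shorten the tail and remove the cap of the targeted messenger RNA. T cells lower the Argonaute proteins and many microRNAs when they are activated, and regulatory T cells that lack Dicer1 or Drosha are known to lose their suppressive function.

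The hairpin removed in cKO T cells is shown as an example of what this machinery handles. RefSeq places it at chr4:88910557-88910662 on the minus strand of GRCm38.p6. The 106 bases are printed with both mature arms in capitals, followed by the arms with the seed, bases 2 to 8, in capitals.
Mir31 hairpin: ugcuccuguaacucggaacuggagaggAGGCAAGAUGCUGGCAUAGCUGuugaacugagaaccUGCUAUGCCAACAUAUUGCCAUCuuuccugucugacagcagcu
mmu-miR-31-5p: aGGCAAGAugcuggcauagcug
mmu-miR-31-3p: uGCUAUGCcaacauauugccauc
Among the 1738 mature mouse microRNAs of the RefSeq table, each of these seeds occurred in 1, namely the arm itself.

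Some of the genes also carry hairpins of their own. By RefSeq positions, Dgcr8 held 2 hairpins on its own strand (Mir1306 and the hairpin of miR-3618, listed as Gm24572), Xpo5 held 1 (Mir693) and Ddx5 held 1 (Mir3064), while Dicer1, Tarbp2, Tnrc6a and Ddx17 held 0. Those of Dgcr8 are shown because the Drosha and Dgcr8 complex is known to cut hairpins in the Dgcr8 transcript itself, which lowers its own messenger RNA. Their mature arms are printed with the seed in capitals.
mmu-miR-1306-5p: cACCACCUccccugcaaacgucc
mmu-miR-1306-3p: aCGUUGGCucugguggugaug
mmu-miR-3618-5p: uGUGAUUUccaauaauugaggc
mmu-miR-3618-3p: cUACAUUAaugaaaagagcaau
None of these 4 seeds was shared with another mature microRNA of the table. The array measured messenger RNAs and some noncoding transcripts, and no mature microRNA has a value here.

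Array values are given on a log2 scale relative to the 75th percentile of the same array, so that 0 is a probe as bright as that percentile, and a difference is cKO minus control. Between 49.3% and 57.7% of the spots of an array were well above background. The slides limit every result. All 3 cKO arrays shared a slide with control array 1 alone, the remaining control arrays were on a different slide, and beyond control array 1 the effects of slide and genotype cannot be told apart. When limma weighted the arrays by their fit, cKO array 3 had the lowest weight, 0.173, and the other arrays had 0.555 to 5.05. All 7 markers of CD4 T and regulatory T cells, Foxp3 among them, were well above background on every array, and their summed level was 52.4 to 65.0 times the 75th percentile in cKO and 59.8 to 67.3 in control cells. By limma 0 of the 7 passed an adjusted p of 0.05. At an unadjusted p of 0.05, Foxp3 (-0.62) and Cd3e (-0.28, with another probe at 0.78) were lower in cKO cells. Ctla4 (0.94), Cd3g (0.74), Cd4 (0.66) and Cd28 (0.43) were higher. Those 2 lower and 4 higher of the 7 stand beside 11.5% and 12.0% of all genes, each read by its brightest tested probe. The summed level of the 3 erythroid markers was 0.467 to 1.04 times the 75th percentile on the cKO arrays and 0.186 to 0.373 on the control arrays, highest on cKO array 3. That of the 5 B cell markers was 0.547 to 1.27 and 0.382 to 0.625, again highest on cKO array 3, with Pax5 not well above background on any array. The 2 CD8 T cell markers summed to 3.87 to 4.34 on the cKO arrays and 4.42 to 5.61 on the control arrays. For the 5 myeloid markers the sum was 0.141 to 0.149 and 0.114 to 0.316, with Emr1 not well above background on any array. The part of these cells and markers in the results below was not tested. In RNA of whole cultures, fewer cells of a type and less RNA per cell cannot be told apart.

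None of the 14 tested probes of the machinery passed an adjusted p of 0.05 (limma with Benjamini-Hochberg adjustment over 22281 probes), and the lowest adjusted p among them was 0.161. Of all tested probes, 54 passed, or 0.242%. At an unadjusted p of 0.05, 3 of the 14 probes were lower in cKO cells, 1 each of Dgcr8, Dicer1 and Xpo5, beside 11.4% of all tested probes, and 0 were higher, beside 11.5%. This count of 3 became 4 without cKO array 1, 0 without cKO array 2, and 1 without control array 2 or control array 3. Over all 22281 tested probes, the lower ones numbered 2547 with every array, 3400 without cKO array 1 and 2171 without cKO array 2. Without control array 2 or control array 3 they numbered 1254 or 1150. With the methods' t-test on the same values, 0 of the 14 passed after adjustment. Before adjustment 2 were lower and 0 higher by that test, beside 1934 and 2084 of the 22281 tested probes. All 3 cKO arrays lay below all 3 control arrays for 7 of the 14 probes, beside 20.7% of all tested probes, and above them for 0, beside 15.9%. The median difference was -0.17 over the 14 probes and -0.04 over all tested probes. The probes of a gene share its transcripts, so the 14 are not 14 separate observations.

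**Figure D1:**
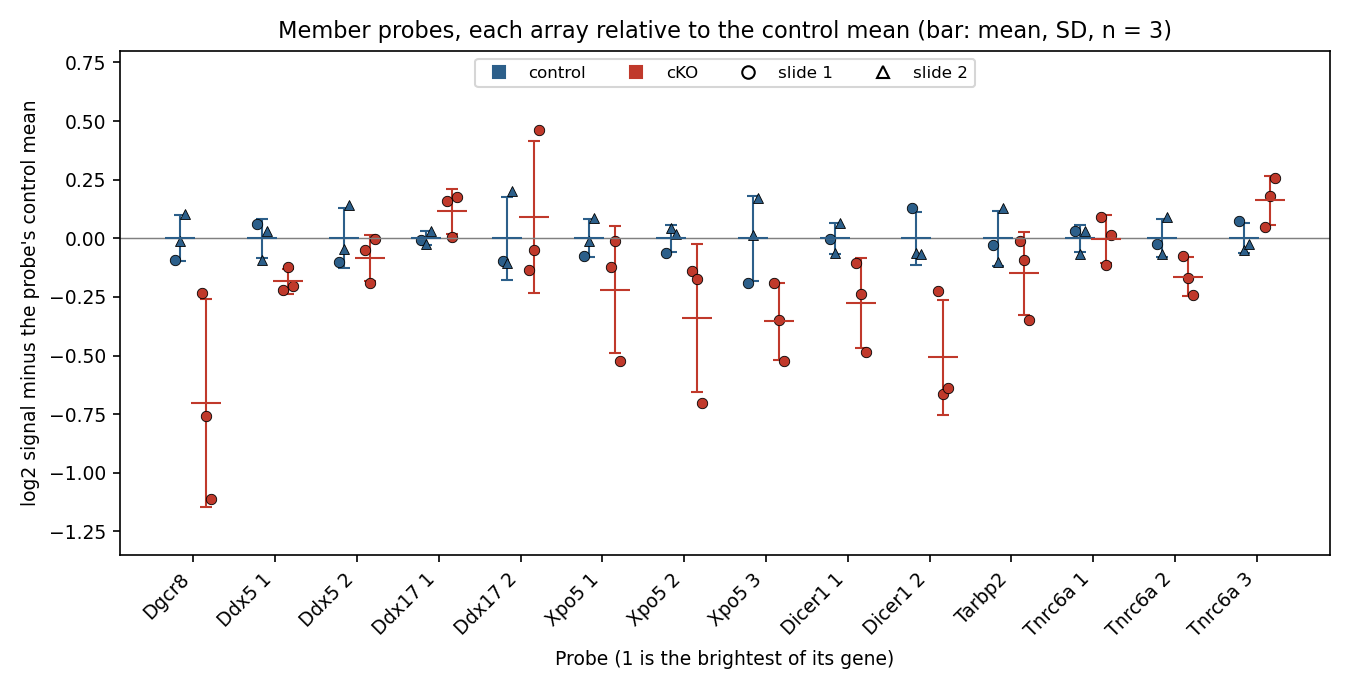
Each of the 14 tested probes on each array, as the log2 signal minus the probe's mean over the control arrays (y axis), with the mean and SD of each group (n = 3). The probes (x axis) run in the order of the pathway, circles are arrays of the slide that holds all cKO arrays, and triangles are control arrays 2 and 3. The cKO points of Dgcr8 and Dicer1 lie below all control points, and those of Tnrc6a 1 and Ddx5 2 overlap them.

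In the nucleus, Dgcr8 recognizes the hairpin and holds it for Drosha. Its only probe above background (NM_033324, chr16:18254244-18254303 in mm9) read -0.11, -0.64 and -0.99 on cKO arrays 1 to 3, and 0.03, 0.11 and 0.23 on control arrays 1 to 3. Every cKO array was below every control array, and the cKO arrays spread more widely (SD 0.44, n = 3) than the control arrays (SD 0.10, n = 3). The difference was -0.70 (SE 0.23, 95% interval -1.26 to -0.15), a ratio of 0.615, with an unadjusted p of 0.0209 and an adjusted p of 0.173 by limma. It ranged from -0.94 without cKO array 1 to -0.50 without cKO array 3, and against control array 1 alone, of the same slide, it was -0.61. The difference of -0.70 was the largest of the 14 probes in size. The other 3 Dgcr8 probes, annotated ENSMUST00000156274, ENSMUST00000128856 and AK044890, were well above background on 1 cKO array and 0 control arrays between them and have no fold change here.

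Ddx5 and Ddx17 are closely related RNA helicases that join Drosha and Dgcr8 on a subset of hairpins and also take part in splicing and transcription. The brighter Ddx5 probe (NM_007840, chr11:106642912-106642971) read 5.09, 5.19 and 5.11 in cKO and 5.38, 5.22 and 5.35 in control cells. The cKO arrays lay just below the control arrays, at a difference of -0.18 (SE 0.10, adjusted p = 0.297 by limma). The dimmer Ddx5 probe of the same transcript read 3.39, 3.25 and 3.44 in cKO and 3.34, 3.40 and 3.59 in control cells, where the groups overlapped (-0.08, SE 0.12). For Ddx17 the brighter probe (NM_199080, chr15:79358337-79358396) read 5.84, 5.69 and 5.86 in cKO and 5.68, 5.66 and 5.71 in control cells. These groups overlapped too, with a difference of 0.11 (SE 0.10, adjusted p = 0.492 by limma) and an interval from -0.13 to 0.36. With normexp background correction and the 75th percentile, a setting that moved the median of all tested probes from -0.04 to 0.11, it was -0.12. The dimmer Ddx17 probe (NM_199079) read -0.27, -0.18 and 0.33 in cKO and -0.23, -0.23 and 0.07 in control cells, with cKO array 3 the highest of the 6, and its difference went from 0.09 to -0.09 without that array.

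Within each array, the brighter Ddx17 probe minus the brighter Ddx5 probe came to 0.75, 0.50 and 0.75 in cKO and 0.30, 0.43 and 0.37 in control cells. For these probes the gap was larger on every cKO array than on every control array, by 0.30. The exact permutation test gave a 2-sided p of 0.1, the smallest that 3 arrays against 3 allow, and 0.325 after adjustment over the 13 pairs of probes compared this way. Against the dimmer Ddx5 probe the gap of the brighter Ddx17 probe differed by 0.20, also without overlap. With the dimmer Ddx17 probe the groups overlapped, with differences of 0.28 and 0.17 against the brighter and the dimmer Ddx5 probe.

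Xpo5, the receptor that exports the hairpin, had 3 tested probes. The brightest (NM_028198, chr17:46378755-46378814) read 1.28, 1.39 and 0.88 in cKO and 1.33, 1.39 and 1.49 in control cells. Here cKO array 3 stood lowest, cKO array 1 was just below the controls and cKO array 2 lay among them. The difference was -0.22 (SE 0.16, adjusted p = 0.414 by limma) with it and -0.07 without cKO array 3. The next probe (AK122486, chr17:46379784-46379843) read -0.14, -0.17 and -0.70 in cKO and -0.06, 0.05 and 0.02 in control cells. All cKO arrays were below the controls there, and the difference of -0.34 (SE 0.17) became -0.16 without cKO array 3. The dimmest tested probe (NM_028198), whose position runs over 5992 bases and so crosses a splice junction, read -3.63, -3.78 and -3.96 in cKO and -3.62, -3.42 and -3.26 in control cells. The groups did not overlap but nearly touched, and the difference was -0.35 (SE 0.14, unadjusted p = 0.0482, adjusted p = 0.216 by limma). With normexp and the 75th percentile the sign of this dim probe turned, to 0.45. The 3 probes differed among themselves between the genotypes by -0.14 to -0.02, with exact permutation p from 0.2 to 0.9.

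Dicer1, the enzyme that cuts the hairpin to its final length, had 2 probes on NM_148948 and both lay lower in cKO cells. The brighter (chr12:105960373-105960432) read 1.31, 1.18 and 0.93 in cKO and 1.41, 1.35 and 1.48 in control cells. The groups did not overlap, and the difference was -0.28 (SE 0.13, 95% interval -0.59 to 0.04, adjusted p = 0.249 by limma), or -0.17 without cKO array 3. The dimmer probe, whose position spans 2072 bases and so crosses a splice junction, read -0.32, -0.76 and -0.73 in cKO and 0.03, -0.16 and -0.17 in control cells. Again every cKO array was below every control array, here with cKO arrays 2 and 3 nearly equal. Its difference was -0.51 (SE 0.15, 95% interval -0.88 to -0.14), a ratio of 0.704, with an unadjusted p of 0.0155 and an adjusted p of 0.161 by limma, the lowest of the 14. Without cKO array 3 it was -0.44, and against control array 1 alone it was -0.64. The gap between the Dicer1 probes differed by -0.23 between the genotypes, with an exact permutation p of 0.2 and overlapping groups.

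Tarbp2 is the RNA-binding partner of Dicer1 that helps to place the duplex on Argonaute. Its probe (NM_009319, chr15:102353827-102353886) read 2.37, 2.29 and 2.04 in cKO and 2.35, 2.28 and 2.51 in control cells. The groups overlapped, with a difference of -0.15 (SE 0.13, 95% interval -0.47 to 0.17, adjusted p = 0.497 by limma) that came to -0.05 without cKO array 3.

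Tnrc6a, also called GW182, is the scaffold that links Argonaute to the deadenylases. The brightest of its 3 probes on NM_144925 (chr7:130336949-130337008) read 2.06, 1.86 and 1.98 in cKO and 2.00, 1.91 and 2.00 in control cells. These values coincided, with a difference of 0.00 to 2 decimals (SE 0.10) and a 95% interval from -0.25 to 0.25. The next probe (chr7:130338627-130338686) read 0.94, 0.85 and 0.78 in cKO and 1.00, 0.95 and 1.11 in control cells, below the controls on every array by -0.16 (SE 0.10, adjusted p = 0.36 by limma). The dimmest (chr7:130317766-130317825) read -1.04, -0.91 and -0.84 in cKO and -1.02, -1.14 and -1.12 in control cells, which overlapped, at 0.16 (SE 0.11, adjusted p = 0.37 by limma). These last probes thus had differences of opposite sign, and neither passed the test. Their gap within an array differed by 0.33 between the genotypes without overlap, at an exact permutation p of 0.1 and 0.325 adjusted over the 13 pairs.

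**Figure D2:**
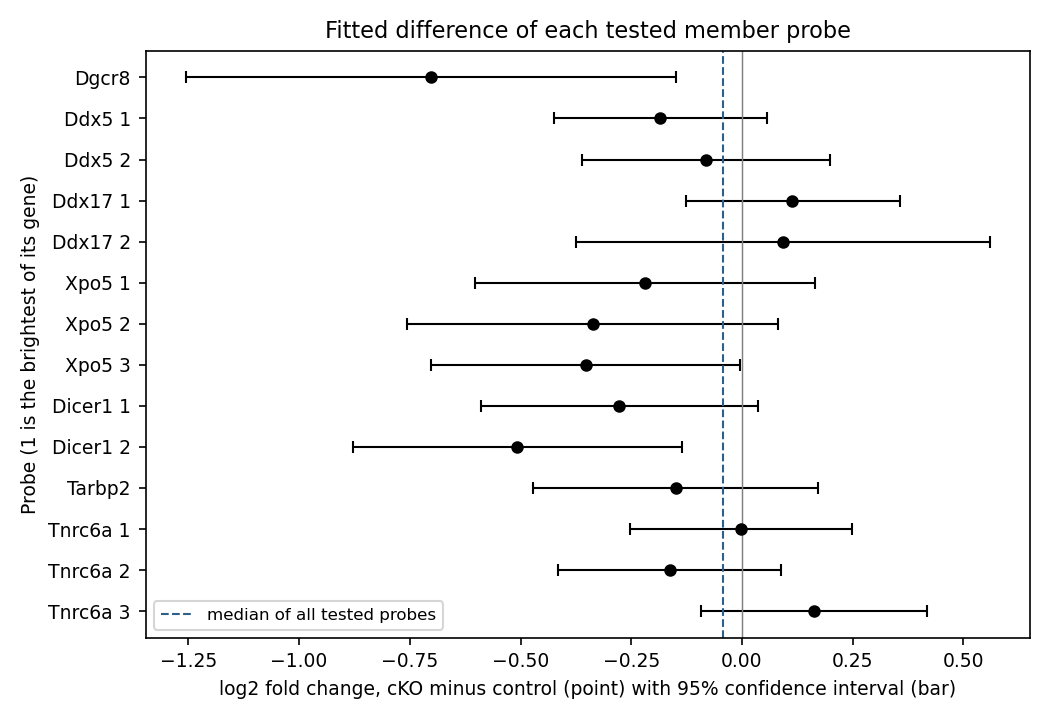
The fitted log2 fold change, cKO minus control, of each tested probe (point, x axis) with its 95% confidence interval from limma (bar), by probe (y axis). The intervals of Dgcr8, Dicer1 2 and Xpo5 3 exclude 0 before adjustment, and all 3 lie on the lower side. The dashed line is the median of all tested probes, at -0.04.

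Of the 18 alternatives fitted probe by probe, weighting the arrays by their fit was the single one under which any probe of the machinery passed an adjusted p of 0.05. The Dgcr8 probe was then at -0.65 with an adjusted p of 0.0449, in a range over all alternatives from 0.0449 to 0.73. The dimmer Dicer1 probe was at -0.54 with an adjusted p of 0.0485, in a range from 0.0485 to 0.645. Those 2 of 14 probes stand beside 2205 of all tested probes, or 9.9%, that passed under the same weights. When limma also fitted the slide, Dgcr8 was at -0.61 (SE 0.35) and the dimmer Dicer1 probe at -0.64 (SE 0.23), with adjusted p of 0.73 and 0.645. The slide of control arrays 2 and 3 held no cKO array, so these are the differences against control array 1 alone given above.

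**Figure D3:**
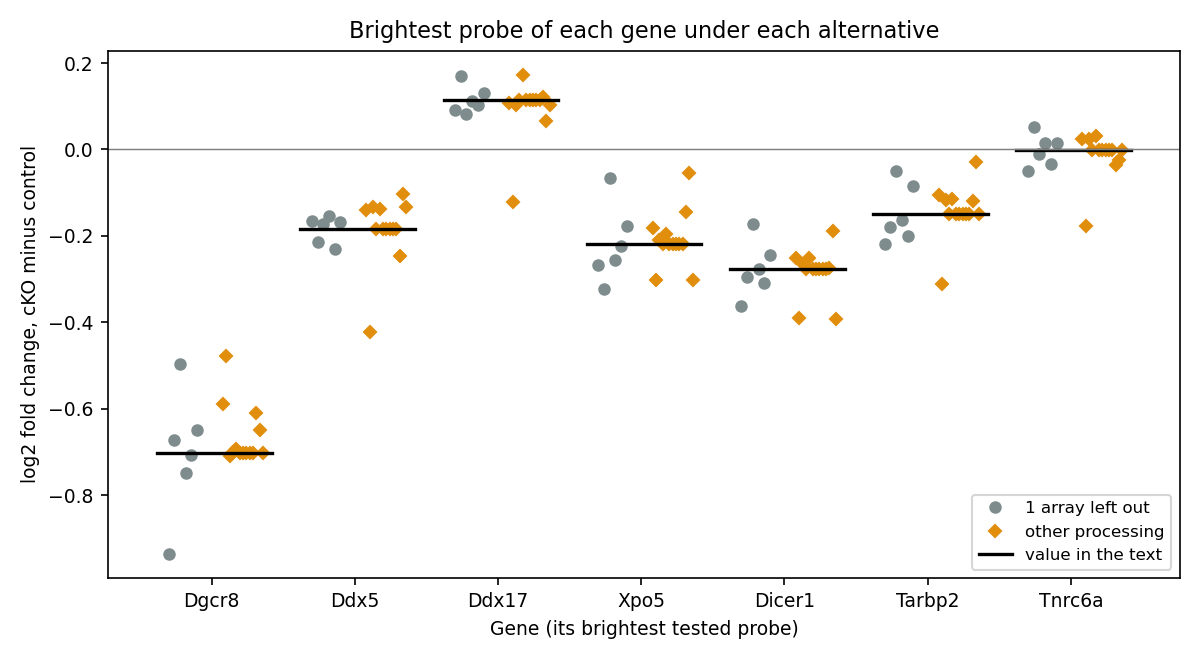
The log2 fold change (y axis) of the brightest tested probe of each gene (x axis) as given in the text (black line), with 1 array left out (grey circles) and with other processing (orange diamonds). Dgcr8 is at -0.48 or lower under every alternative shown, and Tnrc6a lies on both sides of 0.

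Genes of the same pathway outside these 7 were read from a list of 63, of which 61 were above background, each by its brightest tested probe. Of the 61, 0 passed an adjusted p of 0.05 by limma or by the test of the study's methods. Before adjustment the test of the methods called 9 of the 61, 4 lower and 5 higher in cKO cells. Over all 22281 tested probes it called 1934 lower and 2084 higher. By limma at an unadjusted p of 0.05, 5 of the 61 were lower in cKO cells and 3 were higher. Among all genes, each read by its brightest tested probe, 11.5% were lower and 12.0% higher by limma. The median difference over the 61 was -0.09, and over all genes -0.05. With the slide in the fit, 0 genes of the list were lower and 1 was higher at that threshold. Of the 22281 tested probes, 590 were lower and 1056 higher in that fit. With array weights 3 of the 61 passed the adjusted threshold, beside 9.9% of all tested probes.

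Of the steps with more than 1 gene listed, the nuclear step had the lowest median difference, -0.30, with 12 of 14 genes below 0, beside 55.0% of all genes. Over the alternatives 11 to 14 genes were below 0 and the median ran from -0.43 to -0.17, the latter without cKO array 3. Drosha, the nuclease that works with Dgcr8, read 3.64, 3.62 and 3.14 in cKO and 3.88, 3.83 and 3.83 in control cells. All cKO arrays were below the controls, by -0.38 (SE 0.16, unadjusted p = 0.0533, adjusted p = 0.223 by limma), and its 3 probes ranged from -0.50 to -0.38. Srrt, which joins the cap-binding complex to the microRNA transcript, was at -0.64 (adjusted p = 0.136 by limma), Ncbp2, a subunit of that cap-binding complex, at -0.50 (0.194), and Adar, which edits adenosines in paired RNA, at -0.49 (0.204). These 3 were the nuclear genes with an unadjusted p under 0.05. The count of 3 was 0 with the slide in the fit, 6 without cKO array 1, 1 without any single control array and 3 without cKO array 3. Of all 22281 tested probes, 2547 were lower at that threshold, and 590 were with the slide in the fit. Leaving out cKO array 1 gave 3400, cKO array 3 gave 2438, and single control arrays gave 1150 to 1878. For export, Ran, the GTPase that loads Xpo5, read 7.27, 6.69 and 6.63 in cKO and 7.35, 7.38 and 7.61 in control cells. Its difference was -0.59 (SE 0.20, adjusted p = 0.177 by limma), with no overlap.

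In dicing and loading, 2 of 12 genes had an unadjusted p under 0.05 and both were higher in cKO cells, beside 12.0% of all genes. Prkra, the other partner protein of Dicer1 beside Tarbp2, read -0.32, -0.05 and 0.49 in cKO and -0.90, -0.93 and -0.87 in control cells. That was a difference of 0.94 (SE 0.21, adjusted p = 0.12 by limma), the largest of the 61 in size, on the single tested probe of 2. Ago2 (Eif2c2 on the array), the Argonaute that can slice its target, read 4.56, 4.71 and 4.77 in cKO and 4.41, 4.32 and 4.38 in control cells. Its 4 probes agreed in direction, from 0.29 to 0.32, and the brightest was at 0.31 (SE 0.10, adjusted p = 0.177 by limma). Of the other Argonautes, Ago1 was at -0.04 and Ago4 at -0.09. Ago3 was at 0.02 by its brightest probe, and its 4 tested probes ran from -0.58 to 0.60.

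For silencing, 1 of 26 genes was lower at an unadjusted p under 0.05, beside 11.5% of all genes. This was the helicase Mov10, at -0.48 (SE 0.18, adjusted p = 0.198 by limma). The relatives of Tnrc6a were at 0.24 (SE 0.13) for Tnrc6b, with every cKO array above the controls, and at -0.31 (SE 0.19) for Tnrc6c, with overlap. Neither passed the unadjusted threshold, and the probes of Tnrc6b ran from -0.04 to 0.41. Of the genes for tailing and decay of microRNAs, 8 of 10 were tested. Lin28a and Lin28b, which bind the let-7 precursor in stem cells, were not well above background on any array by their brightest probes. Tut7 (Zcchc6 on the array), which adds uridines to hairpins, was the only one of the 8 past the unadjusted threshold. It was higher in cKO cells, as were 12.0% of all genes at that threshold. Its brightest probe was at 0.28 (SE 0.11, adjusted p = 0.204 by limma), while another of its probes was at -0.33.

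Host transcripts, which carry microRNA hairpins in their own introns or exons, were read for 13 of 15 listed genes, the array having no probe named for Mir155hg or Mir17hg. Their median was 0.14, or -0.05 with array weights. None (0) passed an adjusted p of 0.05 by limma. At an unadjusted p of 0.05, 3 were higher by limma, beside 12.0% of all genes. By the methods' t-test 3 were higher too, beside 2084 of the 22281 tested probes. With array weights 1 of the 13 passed the adjusted threshold, beside 9.9% of all tested probes. At the unadjusted threshold 4 were higher and 2 lower under those weights, beside 3522 and 4044 of the 22281 tested probes. Mir22hg, the host of miR-22, read -0.69, -0.42 and -0.74 in cKO and -1.29, -1.36 and -1.25 in control cells, a difference of 0.68 (SE 0.12, adjusted p = 0.0897 by limma). Pank1, the host of miR-107, was at 1.01 (SE 0.26, adjusted p = 0.136) and Rnf130, the host of miR-340, at 0.94 (SE 0.37, adjusted p = 0.207). The Pank1 probe was well above background on 3 cKO and 2 control arrays. Mcm7, the host of the miR-106b cluster, was at -0.53 (SE 0.24) and did not pass the unadjusted threshold. A host transcript says how much of the gene was present, not how much mature microRNA was made.

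**Figure D4:**
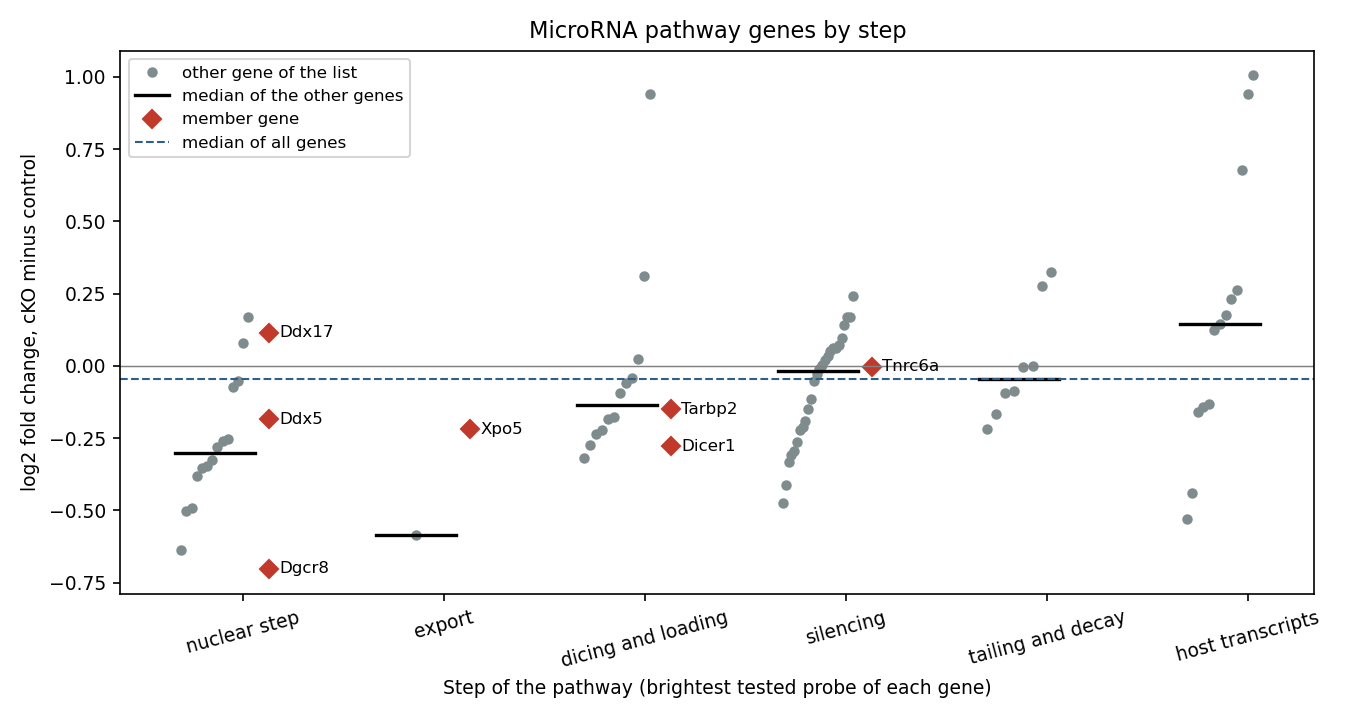
The log2 fold change (y axis) of the brightest tested probe of each gene by step of the pathway (x axis), with the 7 genes as red diamonds, the listed genes as grey circles and their median as a black bar. The dashed line is the median of all genes, -0.05. The nuclear step has 12 of 14 grey circles below 0, where 55.0% of all genes are, and Ddx17 lies above them all but 1.

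Over the 6 arrays, the genes whose brightness varied most like each gene were found by the root mean square difference after centring every probe on its own mean. For Dgcr8 these were Nutf2, at 0.0373 on the log2 scale, and Ppif, at 0.0442, whose own differences between the genotypes were both -0.72. For Dicer1 they were Atp5f1 at 0.0087 and Nup214 at 0.0167, for Xpo5 Pcdhga9 at 0.0263 and Tor1aip2 at 0.0273, and for Tarbp2 Vti1a at 0.0181 and Paf1 at 0.0188. Ddx5 was followed by Fam120b at 0.0229 and Hnrpdl at 0.0237, Ddx17 by Snw1 at 0.0163 and Zmym5 at 0.0188, and Tnrc6a by Zhx1 at 0.0244 and Rab14 at 0.0246. These are the nearest among tested probes with a value on all 6 arrays, each gene counted once. Probes of the gene itself and probes named only by a sequence identifier were left out. The likeness is given as a description.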

How the data were processed

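The RNA of each culture was read on its own array. The authors deposited the scanner output, whose processed signal, mean signal and background median are intensities on a linear scale, extracted per the file headers with Feature Extraction 10.7.3.1 (the submitters' processing notes name 9.1), and a series table of log2 values, deposited without a stated normalization. Its columns correlated with the log2 scanner values at r of 0.998 or more and had medians of 6.146 to 6.1475; how they were scaled is not given in the sources used here. Control and outlier spots were left out, the processed signal was divided by each array's 75th percentile, and log2 values of a probe's spots were averaged. Each of the 18 probes had 1 spot, with 0 outliers and 0 saturated spots. The 22281 probes that stood well above background on 3 or more of the 6 arrays were fitted with limma 3.58.1 in R 4.3.3 (lmFit, eBayes), with Benjamini-Hochberg adjustment. For 19 of them a spot was dropped on some array and the fit used the remaining arrays. Single values between probes were compared by an exact permutation test. The number of arrays limits the precision.

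The probes named are all those of the 7 genes, every listed pathway gene with an unadjusted p under 0.05, Drosha, Ago1 to Ago4, Prkra, Tnrc6b and Tnrc6c, and the 2 genes most alike to each; Mcm7, Lin28a, Lin28b and the CD4 T cell markers with values were chosen after their values were seen. The genes and lists were chosen with earlier results of these data known. Positions are those of the files (mm9), and which exon a probe lies in was not analysed here. All 13 RefSeq accessions among the 18 probes matched the gene named. Hairpins come from RefSeq, GRCm38.p6. The alternatives were 19: normexp (offset 50) with quantile or 75th-percentile scaling, quantile or median scaling, the series table, no filter or a filter over all arrays, the methods' t-test, eBayes with trend and robust fitting, a replicate block, the slide, array weights, the mean over a gene's probes, and each array left out.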

Additional observations from a re-analysis of the deposited data

Results flagged for a closer look

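The Dgcr8 probe annotated ENSMUST00000128856 was left out of the tests because it was well above background on 1 array, which was a cKO array. It read -4.61 on cKO array 3, the highest cKO value, and -4.70 on the highest control array, where it was not well above background. The other cKO arrays read -5.31 and -5.78.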

How the results depend on the processing

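With array weights, 2 of the 14 probes passed an adjusted p of 0.05, and under the other 17 alternatives 0 did. The unadjusted count of 3, all lower in cKO cells, was 1 with normexp and the 75th percentile and 1 with the slide as a term. Over all tested probes the lower ones numbered 2547, and 533 and 590 under these 2 alternatives. Leaving out single arrays gave 0 to 4 of the 14, beside 1150 to 3400 lower over all tested probes. The adjusted count over all tested probes, 54, was 112 with normexp and quantile normalization, 26 with quantile normalization and 28 with the authors' table. It was 174 for probes above background on all arrays, 105 with trend and robust fitting and 2205 with array weights. No filter, the replicate block, normexp with the 75th percentile, the slide in the fit (1646 at an unadjusted p of 0.05) and the methods' t-test (4018) each gave 0, and leaving out single arrays gave 0 to 1. The cause was not tested.

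Among the brightest probes, Dgcr8 passed with array weights, at -0.65. The sign turned for Ddx17 with normexp and the 75th percentile, at -0.121, and for Tnrc6a, at 0.024 with normexp and quantile normalization, 0.024 with quantile normalization and 0.032 with the authors' table, and -0.049 to 0.053 without single arrays. Of the other values of the brightest probes, none crossed the threshold or changed sign.

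The replicate numbers did not pair the arrays, with correlations of deviations of -0.144, 0.00758 and -0.186 for replicates 1 to 3. With the replicate block 2 of the 14 probes had an unadjusted p under 0.05 by limma, beside 3627 of the 22281 tested probes. In that fit 0 of the 14 passed after adjustment, and Dgcr8 was at -0.70 with an adjusted p of 0.302. With 3 arrays a group, an exact test cannot give a 2-sided p under 0.1, and 4 probes near background limit what can be said of minor transcripts.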
